A study of Homo sapiens with 11 samples.

Results

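Tc1-mariner DNA transposons were measured copy by copy in RNA pulled down from HCT116 cells, an established human colorectal cancer line. They were all rows of the repeat tables whose class begins with DNA/TcMar, 156876 of 5622516 annotated repeat elements, in 103 families. HCT116 cells were given a luciferase siRNA as control (siLuc) or one aimed at Staufen1 (siStau1), a protein that binds double-stranded RNA. They received the solvent DMSO or decitabine (DAC), an inhibitor of DNA methylation, at 500 nM for 5 days. J2 is an antibody that recognises double-stranded RNA, and J2 RNA was sequenced in 3 libraries, 1 for siLuc DMSO (called the control library below), 1 for siLuc DAC (the DAC library) and 1 for siStau1 DAC. For total RNA there were 4 groups with 2 libraries apiece, each siRNA with DMSO and with DAC, and these were read here for host genes only. All groups come from 1 cell line.

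Tc1-mariner elements move as DNA. A transposase cuts the element out at its terminal inverted repeats and inserts it at a TA dinucleotide. The human copies no longer move and are remnants, among them Tigger (a relative of the insect element pogo), HSMAR and MARNA (mariner relatives), and Kanga (a Tc2 relative). Many are short non-autonomous copies that kept the inverted ends and lost the transposase gene. MADE1 is the clearest case, a small HSMAR1 derivative that consists mostly of its 2 inverted ends, so that an RNA read through 1 copy can fold back on itself into a hairpin. Copies in opposite orientation, or transcripts from both strands, can also pair. Several host genes were built from Tc1-mariner transposases, CENPB and SETMAR among them.

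Many microRNA genes of the miR-548 family descend from MADE1, and their hairpins show the palindrome that sets these elements apart. The repeat tables give no coordinates, so the sequence of a counted copy is not printed. Below stand 3 miR-548 hairpins from RefSeq on the GRCh38.p14 build, folded with RNAfold, with paired bases in capitals and unpaired bases in lower case, written 5′ to 3′. They were chosen to show long stems of different length.
MIR548M: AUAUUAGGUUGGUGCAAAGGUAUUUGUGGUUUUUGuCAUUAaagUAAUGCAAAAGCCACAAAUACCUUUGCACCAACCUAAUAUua
MIR548AW: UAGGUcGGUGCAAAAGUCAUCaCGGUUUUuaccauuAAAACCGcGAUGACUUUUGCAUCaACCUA
MIR548AR: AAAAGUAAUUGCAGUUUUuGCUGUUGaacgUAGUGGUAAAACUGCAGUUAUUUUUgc
MIR548M, on the minus strand at chrX:95063141-95063226, is 86 bases long and forms 40 predicted base pairs, so that 93.0% of its bases are paired in a single stem. MIR548AW, on the plus strand at chr9:132945707-132945771, pairs 83.1% of its 65 bases. MIR548AR, on the plus strand at chr13:114244505-114244561, pairs 87.7% of its 57 bases. In each, both arms of the stem lie on 1 RNA, the form of double-stranded RNA that a MADE1 copy can make alone.

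The J2 libraries held between 68944777 and 83037330 reads on repeats. With 1 library per group there is no replicate check, so no difference between J2 libraries was tested, and every interval below covers counting error only. The labels of these libraries name J2, while the common protocol entry speaks of an antibody to Staufen1, so which antibody was used is uncertain. In total RNA, STAU1 stood at 35.5 FPKM (DMSO) and 33.7 FPKM (DAC) in siLuc cells, and at 29.98 and 27.1 FPKM in siStau1 cells. It was not called lower in the groups labelled siStau1, with q-values in the authors' deposited table of 0.767 under DMSO and 0.685 under DAC. Its log2 ratios to siLuc were -0.24 and -0.31, so siStau1 is used below as a label, without a called loss of STAU1 mRNA behind it. Ratios are on the log2 scale, from reads divided by the repeat total of the library after adding 0.5 reads to each value. SINE elements took 61.2% (control), 51.9% (DAC) and 58.9% (siStau1 DAC) of reads on repeats, which moves the share left for all other repeats.

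Tc1-mariner elements took a small share of J2 reads, lowest without DAC and highest with it. They held 267913 reads in the control, 0.375% of all reads on repeats (Wilson 95% interval 0.373 to 0.376). They held 607039 reads in siLuc DAC, 0.880% (0.878 to 0.883), and 545279 in the library labelled siStau1 DAC, 0.657% (0.655 to 0.658). The DAC library was thus highest and siStau1 DAC lay between it and the DMSO library. Counted over reads outside SINE elements, the shares were 0.966%, 1.83% and 1.60% in the same order. Elements of hAT, the other large group of human DNA transposons, took 1.46%, 2.24% and 2.06% of all reads on repeats. Outside SINE elements the hAT shares were 3.77%, 4.66% and 5.00%, so that siStau1 DAC was highest and the order changed.

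Most copies gave no read in any J2 library. Of the 156876 copies, 113051 (72.1%) had none, 43825 (27.9%) had at least 1 in some library and 14530 (9.26%) had reads in all 3. Over all repeats, 34.4% had a read, and over hAT 29.1%. In the control 21189 Tc1-mariner copies (13.5%) had a read, against 34691 (22.1%) with DAC and 28561 (18.2%) with siStau1 and DAC. Over all repeats these shares were 23.6%, 24.8% and 26.0%, and over hAT 16.6%, 21.3% and 20.5%. The LINE element L1 had 13.2%, 18.5% and 16.0%, and the SINE element Alu 52.7%, 44.7% and 51.7%. The DAC library thus held more Tc1-mariner copies with a read than the DMSO library. Tc1-mariner copies with at least 20 reads numbered 2515, 6335 and 5210. The matching counts over all repeats and hAT are not given here, so nothing particular to Tc1-mariner copies is read from these numbers. Reads were concentrated: the most read 1569 copies of each library, 1% of all, held 58.2% of its Tc1-mariner reads in the control, 46.6% with DAC and 54.7% with siStau1 and DAC. A copy without a read can carry up to 3 reads per library by counting error with each read as 1 draw, and more where reads come in pairs.

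Between the DAC and control libraries, the comparison of decitabine with its solvent, Tc1-mariner RNA was higher with DAC in the sum, in the median of copies with enough reads and in nearly every family. The summed reads had a log2 ratio of 1.23 (95% interval 1.22 to 1.24), against 0.62 for hAT and 1.11 for DNA transposons of neither group (other DNA transposons below). Whether more cells or more RNA per cell carried these reads cannot be told apart. Of 8351 copies that reached 20 reads over the pair, 5420 (64.9%) were over 2-fold higher and 285 (3.41%) over 2-fold lower with DAC, where 21.3% and 17.0% of all repeat elements tested were. Among 560 other DNA transposons tested, 57.3% were over 2-fold higher and 5.89% over 2-fold lower. The median Tc1-mariner copy stood at 1.52, with quartiles of 0.60 and 2.58, beside 0.72 for hAT, 1.25 for other DNA transposons, 0.96 for the LINE element L1, -0.32 for the SINE element Alu and 0.01 for all repeats. Copies could reach 20 reads through the DAC library alone, and these shares and medians describe only the copies that passed. With other limits the Tc1-mariner median was 1.91 at 1 read or more and 1.13 at 100 or more. Among the 21 repeat classes with at least 500 copies tested, Tigger-type elements had the highest median and Mariner-type elements, at 1.49, the second. With the authors' own factors, which place the median of all repeats at 0.90, the Tc1-mariner median was 2.41. Of Tc1-mariner copies 85.6% were then over 2-fold higher and 1.25% lower, where 46.2% and 6.73% of all repeat elements were. Scaled to reads outside SINE elements, which places all repeats at -0.30, the Tc1-mariner median was 1.20, with 55.3% higher and 5.13% lower. Over all repeat elements these shares were 15.9% and 24.7%.

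**Figure D1:**
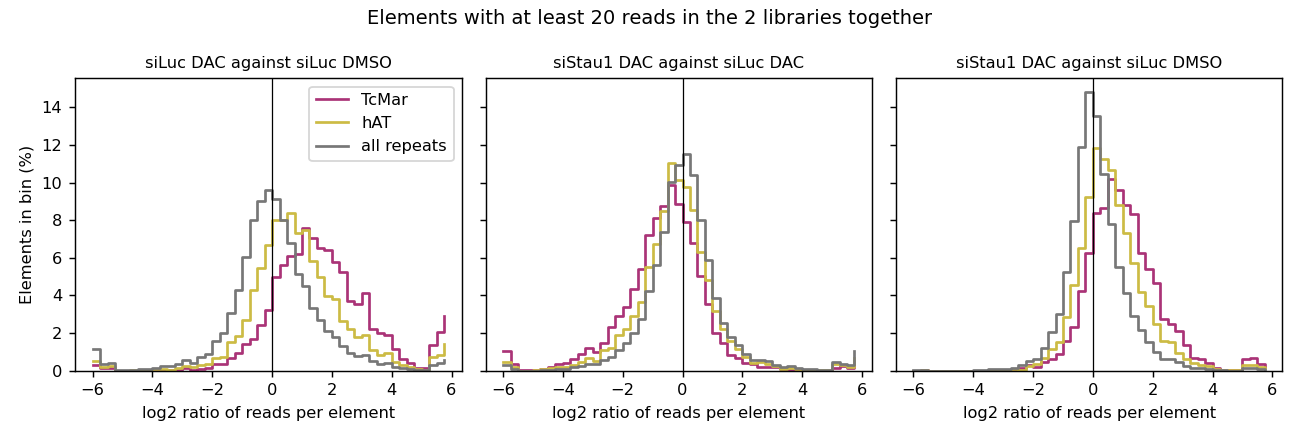
Share of elements (%) in each bin of the log2 ratio of reads, for Tc1-mariner (TcMar), hAT and all repeats in the 3 pairings of J2 libraries, with values beyond 6 in size placed in the end bins. The Tc1-mariner curve is centred at 1.52, -0.51 and 0.91 in the panels from left to right, while all repeats are centred at 0.01, 0.03 and 0.04.

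All 7 Tc1-mariner labels of the tables had more reads in the DAC library than in the control. Tigger-type elements, 129167 copies, made up most of the signal with 237066, 537382 and 479073 reads (control, DAC, siStau1 DAC). Their log2 DAC to control ratio was 1.23 (95% interval 1.22 to 1.24). Mariner-type elements, 16702 copies, had 19055, 40760 and 40044 reads in the same order and a ratio of 1.15 (1.11 to 1.18). Tc2-type elements, 8295 copies that include the Kanga families, had 7081, 17471 and 14169 reads and a ratio of 1.35 (1.30 to 1.41). In these groups the DMSO library was lowest, and for Mariner-type elements the other libraries lay close together in reads. Scaled to 1e+06 reads on repeats, Mariner-type elements stood at 591 in siLuc DAC and 482 in siStau1 DAC. Tc1-type elements, 654 copies, had 2040, 5387 and 6503 reads, a ratio of 1.45 (1.35 to 1.56), and the most reads in siStau1 DAC. Scaled to 1e+06 reads on repeats, siLuc DAC and siStau1 DAC were level for them, at 78.1 and 78.3. Without their most read copy the DAC to control ratio was 2.29 (2.14 to 2.44), which still rests in part on 1 copy of the Tc1-type family X32_DNA. The median of the 30 Tc1-type copies tested was 1.22. The 1851 copies labelled only TcMar had 2583, 5838 and 5324 reads, a ratio of 1.23 (1.13 to 1.32). The labels with the fewest copies were thin: TcMar? (170 copies) had 45, 135 and 114 reads, and Pogo (37 copies, all of the family MER132) had 43, 66 and 52. For Pogo the interval, -0.13 to 1.57, includes 0, so that a difference was not detectable at this depth.

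**Figure D2:**
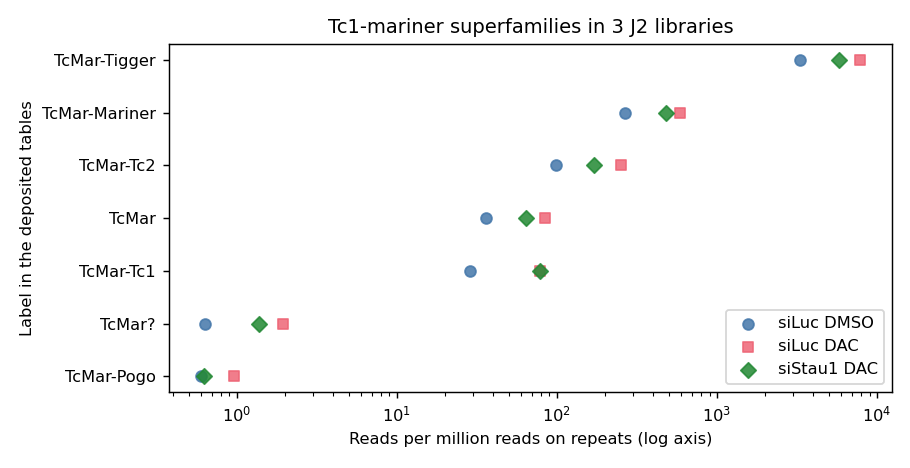
Reads scaled to 1e+06 reads on repeats (log axis) for each Tc1-mariner label in the 3 J2 libraries, 1 point per library. Tigger-type elements stand at 3317 (siLuc DMSO), 7794 (siLuc DAC) and 5769 (siStau1 DAC), and the DMSO library has the lowest point for every label.

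By family, 98 of 99 families with at least 100 reads were higher in the DAC library than in the control, and 82 of them by more than 2-fold. This direction was common, since 87.1% of all interspersed repeat families with that many reads were higher with DAC, and 32.7% by more than 2-fold. The number past 2-fold depended on the scaling, with 97 Tc1-mariner families by the authors' factors and 51 outside SINE elements. A change of scaling shifts all families alike, and the share of all interspersed repeat families under these scalings is not given here. The median Tc1-mariner family had a ratio of 1.32, in a range from -0.06 (MER6C) to 2.61 (X32_DNA). The remaining families, Tigger17b, Tigger1a_Mars, X22_DNA and X33a_DNA, had too few reads. By name, all 43 Tigger families with enough reads, all 7 Kanga families, all 5 mariner families and 16 of the 17 Tigger-type families with MER names were higher. Across the 103 families, the share of copies with a read ran from 8% in X22_DNA to 47.1% in Tigger4a, with a median of 26.9%.

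The 6 families with the most reads, all Tigger-type, together held 37.2% (control), 37.6% (DAC) and 36.8% (siStau1 DAC) of Tc1-mariner reads, so their joint weight hardly moved. Tigger1, an old autonomous Tigger element with 12353 annotated copies, had 42131, 107833 and 92836 reads (control, DAC, siStau1 DAC). Its log2 DAC to control ratio was 1.41 (95% interval 1.39 to 1.43), and 31.6% of its copies had a read in some library. MER2, a family of short Tigger derivatives without a transposase gene, had 7358, 22471 and 14359 reads in the same order and a ratio of 1.66 (1.61 to 1.72). Tigger3a had 9966, 23803 and 21494 reads (ratio 1.31), and Tigger3b 9198, 21806 and 17593 (ratio 1.30). Tigger4a had 13522, 25882 and 25732 reads (ratio 0.99), and Tigger19b 17395, 26427 and 28584 (ratio 0.66). Among these families MER2 stood highest and Tigger19b lowest in the ratio, and Tigger19b alone had its most reads in siStau1 DAC, the library with the highest total.

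**Figure D3:**
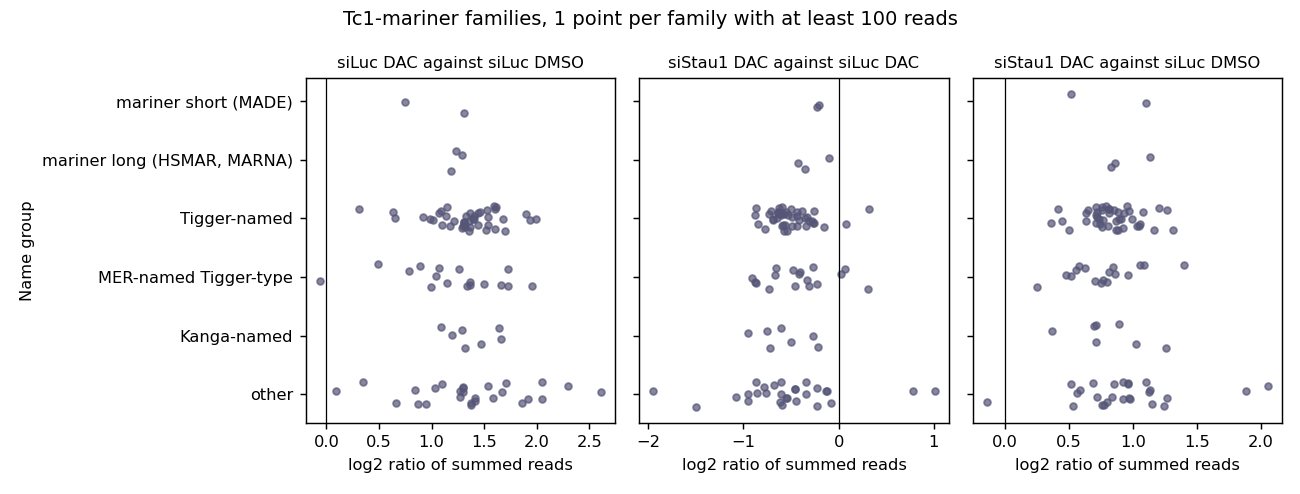
log2 ratio of summed reads for each Tc1-mariner family with at least 100 reads in the 2 libraries compared, grouped by name, 1 point per family, with height within a group only separating points. In the left panel 98 of 99 points lie right of 0, in the middle panel 93 of 100 lie left of it, and in the right panel 97 of 98 lie right of it.

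At the ends of the range, a family's ratio could rest on a single copy. X32_DNA, the highest of the 83 families with at least 1000 reads in the DAC and control libraries together, had 573, 3383 and 2771 reads (control, DAC, siStau1 DAC), a ratio of 2.61 with DAC (95% interval 2.44 to 2.80). Its most read copy held 43.1%, 65.3% and 69.9% of these reads, and without it the ratio was 1.90 (1.64 to 2.15). X10b_DNA followed with 221, 1053 and 447 reads (ratio 2.30), and X1_DNA with 250, 1003 and 572 (ratio 2.05). Both were highest in siLuc DAC. Their most read copies held at most 25.8% and 11.9% of the reads in a library. At the other end, X11_DNA had 759, 780 and 801 reads (ratio 0.09, interval -0.12 to 0.30), 84.7% of them on 1 copy in the control, and MER6C had 2447, 2258 and 3379 (ratio -0.06, interval -0.18 to 0.05). Both intervals include 0, and the ratio of X11_DNA turned to -0.22 and that of MER6C to -0.38 when scaled outside SINE elements, but to 0.98 and 0.82 with the authors' factors. EutTc1-N2, a Tc1-type family, had 1335, 1642 and 3393 reads (ratio 0.35), of which 1 copy held 87.6%, 78.1% and 84.97%. Without their most read copies the ratio was 1.92 (1.504 to 2.37) for X11_DNA, 1.18 (0.80 to 1.58) for EutTc1-N2 and -0.07 (-0.22 to 0.08) for MER6C.

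The palindromic MADE families were higher with DAC as well, MADE1 by less than most. MADE1, with 8005 copies the larger, had 4702, 7620 and 7822 reads (control, DAC, siStau1 DAC). Its DAC to control ratio was 0.75 (95% interval 0.67 to 0.82), in place 77 of the 83 families from the highest. MADE2, with 2711 copies, had 1945, 4650 and 4855 reads and a ratio of 1.31 (1.20 to 1.42), in place 44. The 2 intervals did not overlap. Both MADE families had their lowest reads in the DMSO library and nearly equal reads in the others.

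HSMAR1, the full-length mariner from which MADE1 derives, had 2978, 6754 and 7572 reads in the same order and a ratio of 1.23 (1.15 to 1.32). HSMAR2 had 4095, 8980 and 8440 reads (ratio 1.18), and MARNA 5210, 12317 and 11005 (ratio 1.29). Taken as groups, MADE families had a summed ratio of 0.94 (0.88 to 1.00) and the longer mariners 1.24 (1.20 to 1.29), a gap wider than counting error. The gap rests on MADE1, at 0.75, since MADE2, at 1.31, was not below the longer mariners. A read was found on 14.8% of MADE copies and on 28.0% of the longer mariner copies. The tables give no element lengths, so shares per base could not be compared. Kanga1, an old Tc2-type family, had 617, 1460 and 1458 reads and a ratio of 1.29 (1.10 to 1.49).

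Setting siStau1 DAC beside siLuc DAC asks what the siRNA against Staufen1 did under DAC. Most Tc1-mariner copies and families with enough reads were lower in the library labelled siStau1. The summed reads had a log2 ratio of -0.42 (95% interval -0.43 to -0.42), against -0.13 for hAT and -0.44 for other DNA transposons. Of 10252 copies tested, 3419 (33.3%) were over 2-fold lower and 794 (7.74%) over 2-fold higher, beside 14.8% and 15.5% of all repeat elements. Among other DNA transposons the shares were 32.5% and 9.94%. The median Tc1-mariner copy stood at -0.51, with quartiles of -1.31 and 0.18. L1 had the same rounded median of -0.51, other DNA transposons had -0.43, hAT -0.18, Alu 0.18 and all repeats 0.03. Among 22 classes, Tigger-type elements had the lowest median, at -0.514 beside -0.509 for L1, and Mariner-type elements, at -0.38, stood in place 20. With the authors' factors the Tc1-mariner median was -0.83, with 43.8% lower and 5.03% higher. All repeats then stood at -0.30, with 22.2% lower and 10.5% higher. Scaled outside SINE elements the Tc1-mariner median was -0.28, with 26.9% lower and 10.9% higher. All repeats then stood at 0.25, with 11.0% lower and 20.6% higher. This pairing shares the DAC library with the one above, so a high value there lowers the ratio here. Copies could also reach 20 reads through siLuc DAC alone, and these shares and medians describe only the copies that passed. With other limits, scaled to repeat totals, the Tc1-mariner median was -1.01 at 1 read or more and -0.25 at 100 or more.

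By family, 7 of 100 were higher and 93 lower in siStau1 DAC than in siLuc DAC, where 30.1% of all interspersed repeat families were higher. The median family had a ratio of -0.52. DNA1_Mam, at 194, 342 and 831 reads (control, DAC, siStau1 DAC), was the highest with 1.01 (95% interval 0.76 to 1.29). EutTc1-N2 followed at 0.78 (0.66 to 0.90). Without their most read copies these were 0.70 (0.39 to 1.02) and 0.23 (-0.05 to 0.52). With all copies, both had their highest reads in siStau1 DAC and stayed above 0 under the other scalings. Tigger17, with 396, 475 and 713 reads, had a ratio of 0.32, which turned to -0.01 with the authors' factors and to -0.07 without its most read copy. X10b_DNA was lowest of the 85 families with at least 1000 reads, at -1.50 (-1.73 to -1.27), before X1_DNA at -1.08 and Kanga1a at -0.95. Kanga1a had 602, 1840 and 1149 reads, highest in siLuc DAC.

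MER2 stood in place 82 of those 85 families with a ratio of -0.91 (95% interval -0.96 to -0.87), and Tigger1 in place 43 with -0.48 (-0.50 to -0.47). MADE1 stood in place 16 with -0.23 (-0.29 to -0.17) and MADE2 in place 12 with -0.21 (-0.29 to -0.12). The MADE2 value rests in part on MADE2_432_2, with 185, 391 and 1035 reads (control, DAC, siStau1 DAC). When each family lost its most read copy, MADE2 had -0.43 (-0.52 to -0.34) and MADE1 -0.27 (-0.34 to -0.20). HSMAR1 stood at -0.10, HSMAR2 at -0.36 and MARNA at -0.43. MADE2 and HSMAR1 turned to 0.02 and 0.12 when scaled to reads outside SINE elements, so their direction depends on the scaling. By label, the ratio was -0.43 for Tigger-type, -0.29 for Mariner-type, -0.57 for Tc2-type and 0.00 for Tc1-type elements. The Tc1-type interval, -0.07 to 0.08, includes 0, but the sum rests on the copy EutTc1-N2_1508, with 1170, 1282 and 2883 reads (control, DAC, siStau1 DAC). Without that copy the Tc1-type ratio was -0.45 (95% interval -0.54 to -0.36), and its median copy stood at -0.55.

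The siStau1 DAC and control libraries differ in siRNA and drug together, and Tc1-mariner RNA was again higher in the treated library. The summed ratio was 0.81 (95% interval 0.80 to 0.82), against 0.49 for hAT and 0.68 for other DNA transposons. Of 7110 copies tested, 3271 (46.0%) were over 2-fold higher and 200 (2.81%) over 2-fold lower, beside 14.5% and 8.27% of all repeat elements. The median copy stood at 0.91, with quartiles of 0.24 and 1.66, and at 1.47 with the authors' factors. Those factors raise the share of Tc1-mariner copies over 2-fold higher to 68.6%, with 1.08% lower. Over all repeats they raise the median to 0.60 and the share over 2-fold higher to 30.5%, with 2.78% lower. Mariner-type elements, at 0.93, had the highest median of 21 classes and Tigger-type elements, at 0.90, the second. By family, 97 of 98 were higher, 23 by more than 2-fold, where 90.2% of all interspersed repeat families were higher and 8.03% by more than 2-fold. With the authors' factors 93 Tc1-mariner families were past 2-fold, and outside SINE elements 17, again without the share of all interspersed repeat families under these scalings.

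In that pairing X32_DNA was again highest, at 2.06 (95% interval 1.88 to 2.25), or 1.14 without its most read copy, before DNA1_Mam at 1.88 and MER47B at 1.40. MER47B, a MER-named Tigger derivative, had 1118, 2719 and 3427 reads (control, DAC, siStau1 DAC), and 1 copy held 26.0% of the last. X11_DNA was the single family below 0, at -0.14 (interval -0.35 to 0.06), and turned to 0.43 with the authors' factors and to 0.86 without its most read copy. MER6C stood at 0.25 and Tigger17d, with 896, 1344 and 1340 reads, at 0.36. MADE1 stood in place 73 of 80 families with 0.52 (0.44 to 0.59) and MADE2 in place 11 with 1.10 (1.00 to 1.21). HSMAR1 had 1.13, HSMAR2 0.83 and MARNA 0.86, Tigger1 0.92 and MER2 0.75.

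Single copies show what the sums hold. The most read Tc1-mariner copy was X12_DNA_371_2, with 2171, 3649 and 4505 reads (control, DAC, siStau1 DAC). Tigger16b_578 had 1359, 4177 and 4613 reads, and Tigger5b_433_5 had 1571, 3683 and 3945. All 3 had their fewest reads in the control and their most in siStau1 DAC, which is also the library with the most reads on repeats. Among copies with at least 100 reads in the DAC and control libraries together, X1_DNA_1402 had 0, 119 and 25 reads (control, DAC, siStau1 DAC). With its control value set to a floor of 3 reads, its log2 DAC to control ratio was 5.36, a value without an interval. Tigger14a_306_2 had 3, 135 and 10 reads, a ratio of 5.33 (95% interval 3.61 to 11.5), and Tigger19b_468_3 had 3, 132 and 63, a ratio of 5.29 (3.19 to 8.17). These copies were near 0 without DAC. They were chosen for their high value in the DAC library, so nothing is read from their lower values in siStau1 DAC.

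The copies at the low end of that order had no read in siLuc DAC. Tigger3b_5633 had 223, 0 and 223 reads (control, DAC, siStau1 DAC). Tigger3a_992_2 had 126, 0 and 144 reads, and Tigger2a_2185_3 had 126, 0 and 149. Each was read at like levels in the libraries on both sides and was missing from 1. Such gaps were also found in other repeats. Of 2341 Tc1-mariner copies read at least 20 times in both of the other libraries, 36 (1.54%) had 0 in siLuc DAC, and over all repeats 2.15% did. At 100 reads or more in both, as in the copies named here, it was 4 of 332 (1.20%), and over all repeats 0.681%. The gap was 1.22% for siLuc DMSO (49 of 4020 copies), where all repeats had 0.202%, and 0.0451% for siStau1 DAC (1 of 2216 copies), where all repeats had 0.00420%.

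Between siLuc DAC and siStau1 DAC, the lowest copies were MER44A_546, with 5, 104 and 6 reads (control, DAC, siStau1 DAC), Tigger1_14495, with 10, 116 and 8, and MER47A_1389, with 18, 214 and 16. Each was high in siLuc DAC alone, and the ratio of MER47A_1389 was -3.97 (95% interval -5.26 to -2.98). The highest were Tigger3b_5633, given above, Kanga1b_2145, with 93, 0 and 221 reads, and MER47B_2455, with 166, 2 and 890 reads and a ratio of 8.21 (6.04 to 13.8). At 0 to 2 reads in the DAC library these 3 copies have no order among themselves. These were copies nearly or wholly without reads in siLuc DAC. Between siStau1 DAC and the control, Tigger7_1080_2 had 3, 100 and 159 reads, MER47A_2154_2 had 2, 50 and 105, and Tigger1_13667_7 had 4, 88 and 96, low only without DAC. At the low end, Tigger17d_797 had 75, 36 and 29 reads, Tigger19b_182_20 had 582, 627 and 265, and Tigger3b_5727_2 had 194, 4 and 92.

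The size of the median ratio moved with read level. Between the DAC and control libraries it was 1.91 for 3888 Tc1-mariner copies with a mean under 20 reads over the 3 libraries, 1.39 for 2855 copies at 20 to 50, 1.19 for 978 copies at 50 to 100, and 0.93 for 630 copies at 100 or more. The hAT medians in those ranges were 1.09, 0.65, 0.50 and 0.39, below the Tc1-mariner median in each. Between siStau1 DAC and siLuc DAC the Tc1-mariner medians were -0.74, -0.39, -0.25 and -0.12, so that the most read copies differed least. L1 medians in those ranges were -0.81, -0.39, -0.27 and -0.17, as low or lower. Between siStau1 DAC and the control the Tc1-mariner medians were 0.92, 0.93, 0.85 and 0.81, almost level. The read level includes the library at the high end of a ratio, and its part in the result was not tested.

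**Figure D4:**
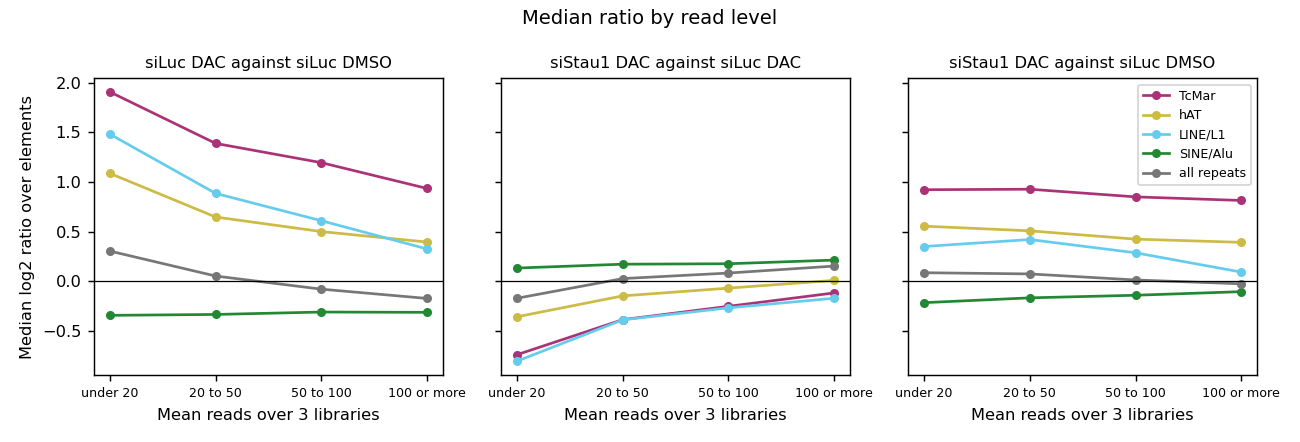
Median log2 ratio of elements by their mean reads over the 3 J2 libraries, for Tc1-mariner (TcMar), hAT, L1, Alu and all repeats, with lines joining the medians of a group. In the left and right panels the Tc1-mariner line lies above the others at each read level, and in the left panel it goes from 1.91 to 0.93. In the middle panel the L1 line lies at or below the Tc1-mariner line.

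The host genes built from Tc1-mariner transposases were read in total RNA, where the authors deposited 1 FPKM value per group of 2 libraries. The list held 13 genes: CENPB, a centromere protein, SETMAR, a histone methyltransferase fused to an HSMAR1 transposase, POGZ and POGK, relatives of pogo, JRK and JRKL, and TIGD1 to TIGD7, named for Tigger. Of the 13, 12 were tested in each of 4 comparisons of the authors' deposited table (TIGD4 was not), and 0 had a q-value under 0.05 from Cuffdiff. At an unadjusted p-value under 0.05 there were 2 for DAC in siLuc cells, 1 for DAC in siStau1 cells, and 1 for siStau1 without and 1 with DAC. Over all genes tested 13.5%, 7.46%, 0.799% and 0.904% had a q-value under 0.05 in that order, the threshold at which the list had 0. The share of all genes at the unadjusted threshold is not given here, so the unadjusted counts have no background beside them. The median log2 ratios of the list, with 0.1 FPKM added, were 0.11, -0.04, -0.33 and -0.43, beside 0.23, 0.11, -0.02 and -0.14 over all genes tested.

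CENPB, at chr20:3783851-3786690 on GRCh38, had 24.0 FPKM under DMSO and 39.3 FPKM under DAC with siLuc, and 13.9 and 28.2 FPKM with siStau1. It was higher with DAC under both siRNAs, and its log2 ratio of 1.01 in siStau1 cells came with the lowest q-value of the list, 0.0622 in the authors' deposited table. SETMAR, at chr3:4303304-4317567, had 8.50, 5.83, 11.1 and 6.29 FPKM in the same order, lower with DAC under both siRNAs (q-values of 0.761 and 0.560 in the authors' deposited table). POGK had 20.1, 24.4, 13.6 and 18.7 FPKM, and POGZ 13.6, 16.5, 8.01 and 10.5. JRKL had 3.86, 1.83, 4.23 and 2.98. These differences did not pass the authors' test. The remaining genes ran from 0.0534 FPKM (TIGD4 in siStau1 DMSO) to 9.83 FPKM (TIGD2 in siStau1 DMSO).

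**Figure D5:**
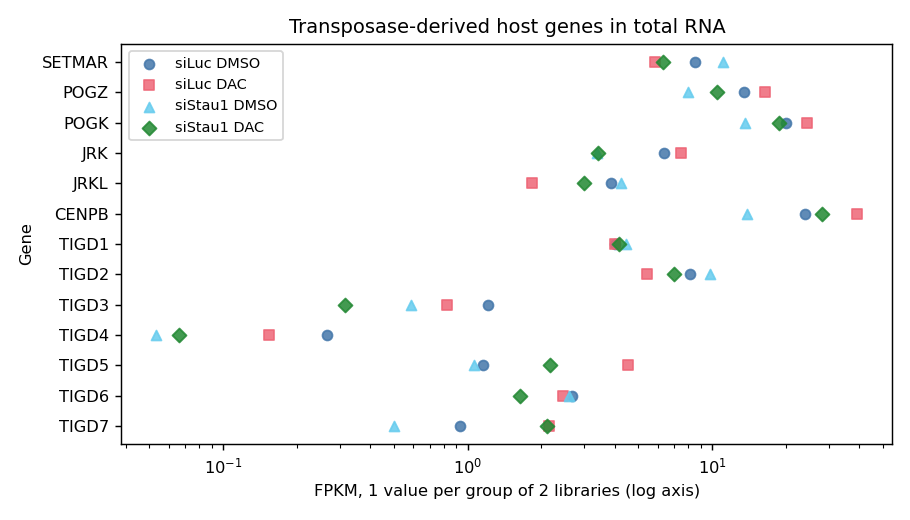
FPKM in total RNA (log axis) of 13 host genes derived from Tc1-mariner transposases, 1 point per group of 2 libraries, without error bars because the authors deposited 1 value per group. CENPB is highest in siLuc DAC at 39.3 FPKM and lowest in siStau1 DMSO at 13.9.

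The miR-548 genes were nearly empty in the same table. Of the 71 MIR548 genes it lists, 0 were above 0 FPKM in the DMSO groups, and 1 was in each DAC group, at 0.692 FPKM with siLuc and 0.121 FPKM with siStau1. A total RNA library of this kind is not made to capture mature microRNAs, so these values bear only on longer transcripts counted to those genes.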

How the data were processed

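RNA bound by J2 was deposited as whole repeat tables. Per the submitters' processing notes, the build was hg38 and the tools included bcl2fastq 2.20, HISAT2 2.1.0, featureCounts, DESeq 1.36.0, Cuffdiff 2.2.1 and Cuffnorm 2.2.1. The step at which each was used, and the treatment of reads with several matches, are not given in the sources used here. The deposited values of the siLuc DMSO library are read counts plus 1. The deposited signal of the others is that count times a factor of 1.92 (siLuc DAC) or 1.27 (siStau1 DAC). Recovery by dividing a column by its minimum and subtracting 1 gave whole reads for 100% of values (tolerance 1e-06), with the same reads in both tables of a library. Even read numbers were commoner than odd ones (in siLuc DMSO 9810 copies with 2, 4 or 6 reads, 4441 with 1, 3 or 5), so each pair of mates was taken as 1 draw in the exact binomial 95% intervals of summed ratios. Share intervals are Wilson 95% intervals over reads and are narrower than pairs would allow.

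Ratios were scaled to totals on repeats, with 0.5 reads added, for copies with 20 or more and families with 100 or more reads summed over the pair of libraries. Families were named from the element name without its numbers. The text names every label, the 6 families with the most reads, 8 preset families, the 3 highest and 3 lowest families with at least 1000 reads per comparison, and likewise 3 and 3 copies with at least 100 reads, with the 3 most read copies. The numbers in element names are not explained in the sources used here. For total RNA the authors deposited FPKM, p-values and q-values in the layout of Cuffdiff, per the file headers, with 1 value per group, so the depth is unknown and no test per library was run. The ratio step was tested on simulated data. Members and lists were chosen with earlier results of these data known. Hairpins come from a RefSeq sequence table that holds 52 MIR548 genes (the total RNA table lists 71). Any hairpin on chromosome 8 was left out, and the remaining 5 were folded with RNAfold 2.7.2. Gene positions are from GENCODE 29. Calculations used Python 3.11.15, SciPy 1.17.1 and pandas 2.3.3.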

Additional observations from a re-analysis of the deposited data

How the results depend on the processing

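Of 68 alternative values, 26 stayed within the counting interval or within 1.5 times the count, 42 moved and 0 reversed a direction that lay outside its counting interval. The 68 did not cover single families under other scalings, and some of those changed direction. Between siStau1 DAC and siLuc DAC, MADE2 (-0.21), HSMAR1 (-0.10) and Tigger19b (-0.16) turned to 0.02, 0.12 and 0.07 outside SINE elements. MER6C (0.31) and Tigger17 (0.32) both turned to -0.01 with the authors' factors. Values without the most read copy of a single label or family were chosen after seeing the data. In what follows, values are given in the order siLuc DAC against siLuc DMSO, siStau1 DAC against siLuc DAC, and siStau1 DAC against siLuc DMSO. The summed log2 ratio was 2.12, -0.75 and 1.38 with the authors' factors, 0.92, -0.20 and 0.73 scaled outside SINE elements, 1.07, -0.32 and 0.76 without elements at 0 reads in any library, and 1.29, -0.47 and 0.82 without the top element of each family. The median was 2.41, -0.83 and 1.47 with the authors' factors, 1.20, -0.28 and 0.82 outside SINE elements, 1.13, -0.25 and 0.77 at 100 reads or more, and 1.91, -1.01 and 1.27 at 1 read or more. Without elements at 0 it moved to 1.40 and -0.43 in the first and second, and with 2 reads added to 1.41 and 0.82 in the first and last. The number of families higher in siStau1 DAC than in siLuc DAC was 2 with the authors' factors, 16 outside SINE elements and 11 without elements at 0, against 7. Matching shares of all interspersed repeat families are not given for these settings. Shares in siLuc DMSO, siLuc DAC and siStau1 DAC were 0.966%, 1.83% and 1.60% outside SINE elements and 0.346%, 0.727% and 0.584% over copies read in all libraries. Each moved with the scale or copies its alternative uses, and other causes were not tested. For host genes the count of 0 calls held at a q-value under 0.01 and with adjustment within each comparison.

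No paired analysis was possible because total RNA has 1 deposited value per group and J2 has 1 library per group. Fits per library and fits leaving out a replicate were not run for that reason. The main limits are the single J2 library per group, the uncertain antibody, STAU1 not called lower in the groups labelled siStau1, and elements without coordinates or lengths. A J2 library of siStau1 DMSO cells was not analysed here, so the drug and the siRNA cannot be crossed. How reads shared by near-identical copies were placed is not given in the sources used here.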

Other observations

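Whether a Tc1-mariner copy had a read went with reads on the rows beside it in the deposited table, a look taken after the data had been seen. The order of rows is not stated in the sources used here. Of 43825 copies with a read, 88.5% had a read in at least 1 of the 2 rows next to them, and of 113051 copies without a read 31.7% had. Between siLuc DAC and siLuc DMSO, 6685 tested copies had a median log2 ratio of 1.53 and the rows next to them, summed, 0.18, with a Spearman correlation across elements of 0.23. Rows of L1 beside a tested Tc1-mariner copy had a median of 1.64 (492 rows), against 0.96 for all L1 rows, and rows of Alu beside one had -0.20 (5082 rows), against -0.32 for all Alu rows. Between siStau1 DAC and siLuc DAC, the copies stood at -0.52 and the rows next to them at -0.07, with a correlation of 0.32, and L1 rows beside a copy stood at -0.73, against -0.51 for all L1 rows. Between siStau1 DAC and siLuc DMSO the copies stood at 0.89 and the rows next to them at 0.10, with a correlation of 0.08. Elements share libraries and are not independent, so these are descriptions without a test.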
